A study of Homo sapiens with 4 samples.

Results

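H3K27ac, an acetylation of histone H3 that marks active promoters and enhancers, was profiled by ChIP-seq in MDA-MB-231 and Hs578T, established human triple-negative breast cancer lines. The chromatin around 10 genes of the EGFR family circuit was described: the receptors EGFR, ERBB2, ERBB3 and ERBB4, the ligands AREG, EREG, HBEGF, TGFA and NRG1, and the feedback inhibitor ERRFI1. They were listed by name out of 19970 protein-coding genes, and the rule itself used no measured value. The members and the other gene lists were, however, chosen with earlier results of these data known. Counts of members and of listed genes below are therefore description only. A pair of windows was read per gene: 1 kb on either side of the canonical start site, called the promoter here, and the gene body with 100 kb on either side. Every library came from cells that had passed through the same sequence: starvation in reduced-serum medium for 8 h, exposure to 10 ng/ml of TWEAK, the cytokine that activates the receptor Fn14, for 48 h, and washout for 72 h, per the labels. Each line contributed 2 libraries. As all 4 shared this treatment, the lists hold no contrast for TWEAK or for its removal.

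EGFR and its relatives are receptor tyrosine kinases that pair up when a ligand binds and then drive the RAS-MAPK and PI3K cascades. ERBB2 has no known ligand of its own and ERBB3 has little kinase activity, so both act mainly in mixed pairs. The ligands are made as membrane-bound precursors that proteases of the ADAM family release. ERRFI1, also known as MIG6, binds the kinase domain of EGFR family members and blocks it, and its gene is itself switched on by growth factor signalling. EGFR is commonly expressed in triple-negative tumours, which by definition lack amplified ERBB2.

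The 4 peak lists differed in size before any gene was considered. On chromosomes 1 to 22 and X, 209 peaks were called under the label MDA-MB-231 replicate 1. The numbers were 43353, 46330 and 44920 for MDA-MB-231 replicate 2, Hs578T replicate 1 and Hs578T replicate 2, called the 3 large lists, and values below follow this order unless stated. The small list had 0 peaks in every member window and is given as 0 throughout, and each value below without it is the one from the 3 large lists. The part of depth or of the input library in the small list was not tested. Mesenchymal marker genes (VIM, AXL, CD44 and ZEB1) had a promoter peak in each large list (4 of 4), whereas the luminal markers ESR1, PGR, GATA3 and FOXA1 (0 of 4), PTPRC of leukocytes and CDH5 of endothelium had none. The endothelial marker PECAM1 was marked in 2 lists, MDA-MB-231 replicate 2 and Hs578T replicate 1. Among epithelial genes, CDH1 and ESRP1 had none and EPCAM had one in the same 2 lists. Sequencing depth is unknown, because the lists carry no read numbers.

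In each large list 9 of the 10 members had a promoter peak, and in all 3 these were the same 9. ERBB4 was unmarked in every list. Of all protein-coding genes, 58.1%, 58.2% and 56.4% were marked in MDA-MB-231 replicate 2, Hs578T replicate 1 and Hs578T replicate 2, 55.6% in all 3, and 0.0601% in MDA-MB-231 replicate 1. Genes without a promoter peak in any list, the state of ERBB4, made up 40.7%. Over the 10 windows, which merge into 9 because those of AREG and EREG share 143.614 kb, the large lists held 139, 144 and 139 peaks. They covered 7.99%, 8.35% and 7.51% of 4673.84 kb, of which the windows of ERBB4 (1363 kb) and NRG1 (1416 kb) make up most. The whole lists covered 2.70%, 2.99% and 2.77% of these chromosomes. The median window of all protein-coding genes was covered to 3.96%, 4.37% and 4.002%.

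The sequences in front of the start sites of ERRFI1, AREG, EREG and EGFR are shown because their promoter peaks are described first below. They are the 250 bases before the RefSeq start, in hg38, read in the direction of transcription, and they lie at chr1:8026310-8026559 (minus strand), chr4:74444886-74445135, chr4:74364895-74365144 and chr7:55018767-55019016 (plus strand). Capitals mark matches to the GC box GGGCGG, the CCAAT box and the CRE TGACGTCA on either strand, and to TATAAA on the sense strand.
ERRFI1 promoter: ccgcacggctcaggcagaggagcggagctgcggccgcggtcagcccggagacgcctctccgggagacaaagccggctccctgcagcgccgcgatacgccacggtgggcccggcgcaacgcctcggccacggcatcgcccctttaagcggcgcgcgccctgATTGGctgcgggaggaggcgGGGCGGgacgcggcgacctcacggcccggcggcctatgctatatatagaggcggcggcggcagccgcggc
AREG promoter: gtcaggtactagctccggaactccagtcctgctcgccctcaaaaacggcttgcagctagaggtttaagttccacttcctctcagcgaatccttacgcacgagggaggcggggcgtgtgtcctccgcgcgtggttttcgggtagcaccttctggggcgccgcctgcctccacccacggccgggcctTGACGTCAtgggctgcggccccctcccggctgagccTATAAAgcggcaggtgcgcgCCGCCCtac
EREG promoter: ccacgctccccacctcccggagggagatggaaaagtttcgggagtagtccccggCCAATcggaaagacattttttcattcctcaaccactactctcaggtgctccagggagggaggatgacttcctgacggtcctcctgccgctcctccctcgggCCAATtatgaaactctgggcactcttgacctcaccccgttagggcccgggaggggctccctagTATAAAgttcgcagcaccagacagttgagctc
EGFR promoter: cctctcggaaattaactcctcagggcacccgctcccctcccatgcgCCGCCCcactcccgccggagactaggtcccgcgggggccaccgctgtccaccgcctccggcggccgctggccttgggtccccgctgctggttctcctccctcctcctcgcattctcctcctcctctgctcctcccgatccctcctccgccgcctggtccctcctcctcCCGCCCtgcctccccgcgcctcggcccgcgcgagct

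Motifs were counted over the full 300-base RefSeq windows, 250 bases before to 50 after the start. AREG held a CRE 65 bases and a TATAAA 29 bases before its start. Of 35116 RefSeq promoters, 1.85% held the CRE and 7.33% the TATAAA. EREG held a TATAAA 32 bases and CCAAT boxes 196 and 95 bases before its start. EGFR, HBEGF and TGFA held 3, 5 and 4 GC boxes and no TATAAA in the windows at their canonical starts, and ERRFI1 held 1 GC box and 1 CCAAT box. Only the exact TATAAA was searched, so variants such as the TATATATA in the printed ERRFI1 sequence were not counted. A GC box occurred in 44.95% of all promoters and CCAAT in 34.6%. The AP-1 motif TGACTCA, searched on both strands, was in no searched member window other than that of a second EGFR start described below. It was in 4.95% of all promoters. None of the motifs contains another. A promoter sequence was matched for 8 of the 10 members, and not for ERBB3 and NRG1. That of ERBB2 lay at its upstream start close to PGAP3, so the promoter at the canonical ERBB2 start was not searched.

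Stretches of 101 bases from strong distal peaks are shown next because most of the covered bases described below lay away from the promoters. A distal peak lay more than 2.5 kb from every protein-coding start site. Each stretch comes from the part of a distal peak common to the 3 large lists, is written on the plus strand of hg38, and shows in capitals the AP-1 motif (TGACTCA or its reverse complement TGAGTCA) on which it is centred. The stretches chosen in the same way for ERBB2 and ERBB3 held no AP-1 match in the common part of the peak and are not shown, and none was taken for NRG1.
ERRFI1 distal peak: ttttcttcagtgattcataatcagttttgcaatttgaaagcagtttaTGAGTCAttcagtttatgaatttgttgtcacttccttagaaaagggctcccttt
HBEGF distal peak: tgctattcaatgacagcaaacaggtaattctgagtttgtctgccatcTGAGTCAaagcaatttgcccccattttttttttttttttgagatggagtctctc
TGFA distal peak: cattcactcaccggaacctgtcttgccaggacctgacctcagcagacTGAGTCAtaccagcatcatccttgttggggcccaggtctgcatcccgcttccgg
AREG and EREG distal peak: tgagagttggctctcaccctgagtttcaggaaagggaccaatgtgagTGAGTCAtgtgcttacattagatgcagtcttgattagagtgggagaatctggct
EGFR distal peak: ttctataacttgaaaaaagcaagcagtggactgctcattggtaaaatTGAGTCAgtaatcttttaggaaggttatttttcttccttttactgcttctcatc
ERBB4 distal peak: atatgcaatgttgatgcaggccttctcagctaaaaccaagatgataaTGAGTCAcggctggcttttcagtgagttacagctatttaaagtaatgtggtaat

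The ERRFI1 stretch, chr1:8096816-8096916, lay 70.6 kb upstream of the start site in intergenic sequence, within a common segment of 5909 bp that held 6 AP-1 matches. That of HBEGF, chr5:140322339-140322439, was intergenic and 24.2 kb past the start site. The TGFA stretch, chr2:70596417-70596517, was intergenic and 42.6 kb upstream. AREG and EREG shared theirs, chr4:74394967-74395067, in the intergenic space between the genes, 50.1 kb upstream of AREG and 29.9 kb past the start of EREG. In EGFR the stretch, chr7:55131371-55131471, lay in intron 1, 112 kb after the start, in a common segment of 9453 bp with 6 AP-1 matches. The ERBB4 stretch, chr2:212032125-212032225, was in intron 2, 507 kb after the start. The common segments of HBEGF (4598 bp), TGFA (3015 bp), AREG and EREG (2891 bp) and ERBB4 (1758 bp) held 1 AP-1 match each. How many matches other distal peaks of such lengths hold was not counted, so these numbers are not read as a trait of the members.

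ERRFI1 (ENSG00000116285.13, chromosome 1, 8004404 to 8026309, minus strand) carried the broadest promoter peak of the members. Its width was 25295 bp in MDA-MB-231 replicate 2, 29096 bp in Hs578T replicate 1 and 27022 bp in Hs578T replicate 2. These peaks covered the whole gene body of 21906 bp, from 3367, 5894 and 3326 bp before the start site to past its end. Only 12, 11 and 10 protein-coding genes of the respective lists had a wider promoter peak, against medians of 1792, 1897 and 1804 bp. The fold enrichment of the same peaks, a ratio to the local background of each library and therefore read only as a rank within its list, was 9.22, 7.90 and 7.01. Those values stood at percentiles 50.4, 48.3 and 51.4 of promoter-marked genes, so the peak was exceptional in width and near the middle in fold enrichment. Each peak carries a single such value for its whole width, so the height within a wide peak was not read.

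Around ERRFI1, 78185, 81865 and 77628 bp of the 221.906 kb window were covered, or 35.2%, 36.9% and 34.98%. All 3 values lay above those of every other member. Of all genes, 21, 30 and 27 had a higher covered percentage. Bases before the start site made up 64.0%, 63.1% and 63.6% of the total. There, 5 regions were picked for a fold enrichment above 15 in every large list. The next strongest upstream region, 14.4 kb from the start, stood at 11.9, 9.66 and 7.92. The picked regions, all intergenic, were centred between 20.8 and 93.3 kb upstream. Their values were 19.5 to 33.4, and together they took 38157, 38266 and 35685 bp. In MDA-MB-231 replicate 2 the highest of them, centred 67.4 kb upstream, ranked 180th of 43353 peaks at 33.4. In Hs578T replicate 1 the peak 34.8 kb upstream was highest, at 32.3 and rank 217, and in Hs578T replicate 2 it was the one 70.2 kb upstream, at 27.2 and rank 208. Of the other genes in the window, PARK7, 64.6 kb past the start and encoding a redox-protective protein, was promoter-marked in all 3 lists at 10.2, 8.40 and 8.68.

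**Figure D1:**
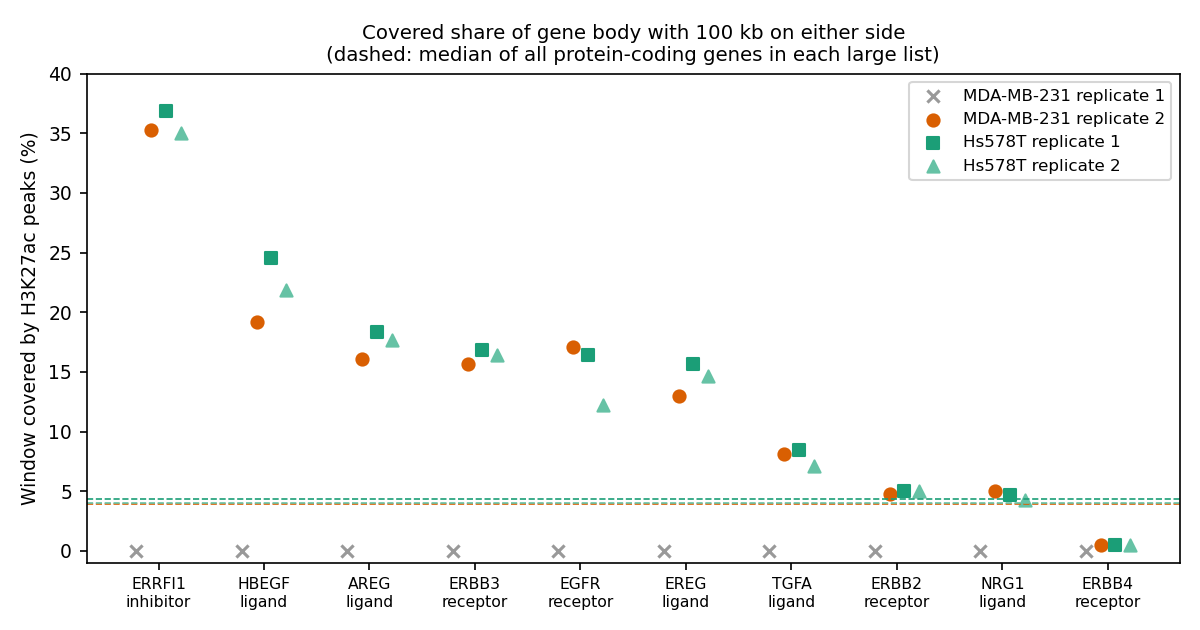
Percentage of each member's window (gene body with 100 kb on either side) covered by H3K27ac peaks, with 1 marker per list and members ordered by the mean over the 3 large lists. ERRFI1 lies at 34.98 to 36.9% in the large lists and ERBB4 at 0.484 to 0.520%, while the small list is at 0 for each gene.

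Of the ligands, HBEGF (ENSG00000113070.8, chromosome 5, 140332843 to 140346603, minus strand), whose product binds EGFR and ERBB4, had the largest covered share. It was 19.2% in MDA-MB-231 replicate 2 but 24.5% and 21.8% in the Hs578T lists, or 41061, 52430 and 46676 bp. Between 89.7% and 92.1% of these bases lay after the start site, most of them past the gene end, where 34413, 39172 and 35681 bp were covered. The strongest peak of the window in MDA-MB-231 replicate 2 and in Hs578T replicate 2 lay 23.1 and 22.8 kb past the start, at 29.1 and 20.9, and that of Hs578T replicate 1, 94.3 kb past it, reached 21.98. At the promoter the peak was 3237, 4338 and 2896 bp wide with a fold enrichment of 7.72, 6.16 and 5.70, at percentiles 38.9, 32.5 and 37.1. A pair of weak regions in the gene body, centred 7.20 and 13.2 kb after the start with values of 2.82 to 3.12, were called in both Hs578T lists and not in MDA-MB-231 replicate 2. Gene body coverage was 66.3% and 50.8% in the Hs578T lists against 17.5% in that list, and with 0 peaks in the other MDA-MB-231 list the lines could not be compared.

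Neighbouring genes in the HBEGF window were marked as well. PFDN1, a prefoldin subunit 43.5 kb past the start, had values of 10.7, 10.8 and 7.66, and the shared peak of ANKHD1 and ANKHD1-EIF4EBP3, 55.2 kb upstream, had 9.34, 8.27 and 7.004.

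AREG (ENSG00000109321.11, chromosome 4, 74445136 to 74455005, plus strand) and EREG (ENSG00000124882.4, 74365145 to 74388749, plus strand), which encode the EGFR ligands amphiregulin and epiregulin, start 79.991 kb apart. The AREG promoter peak was 7650, 7790 and 8894 bp wide, with only 349, 453 and 243 genes wider, and covered 70.4%, 70.5% and 71.2% of the gene body. Its fold enrichment was 7.15, 9.22 and 7.88, at percentiles 34.5, 58.4 and 59.6. The AREG window was covered to 16.1%, 18.3% and 17.6%. That of EREG, which shares most of these peaks, was covered to 13.0%, 15.6% and 14.6%.

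The EREG promoter peak measured 3948 bp in MDA-MB-231 replicate 2, 15065 bp in Hs578T replicate 1 and 5022 bp in Hs578T replicate 2. In Hs578T replicate 1 a single peak ran through the promoter and into intron 1, whereas the other lists had a separate intron 1 peak of 8774 and 9512 bp. Taken as 1 region, promoter and intron 1 held 12722, 15065 and 14534 covered bases, so the wide value of 1 Hs578T list reflected where the peaks were split. The fold enrichment of 19.1 at the EREG promoter in that list, against 10.8 and 8.36, belonged to the joined peak, and the intron 1 peaks of the other lists stood at 21.9 and 20.8. EPGN, a ligand gene 56.7 kb upstream of EREG, had no promoter peak in any list.

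TGFA (ENSG00000163235.16, chromosome 2, 70447284 to 70554193, minus strand) encodes TGF-α, an EGFR ligand. Its promoter peak was 3572, 4050 and 3163 bp wide, and its fold enrichment of 12.2, 9.61 and 7.14 stood at percentiles 69.3, 61.4 and 52.8, the highest of the ligands in MDA-MB-231 replicate 2. Coverage of its window was 8.14%, 8.42% and 7.07%. A pair of narrow peaks carried the highest values. One lay 42.8 kb upstream at 23.5, 24.0 and 18.5, and the other in intron 1, 29.2 kb after the start, at 25.3, 22.4 and 16.4. No other protein-coding gene started in this window.

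**Figure D2:**
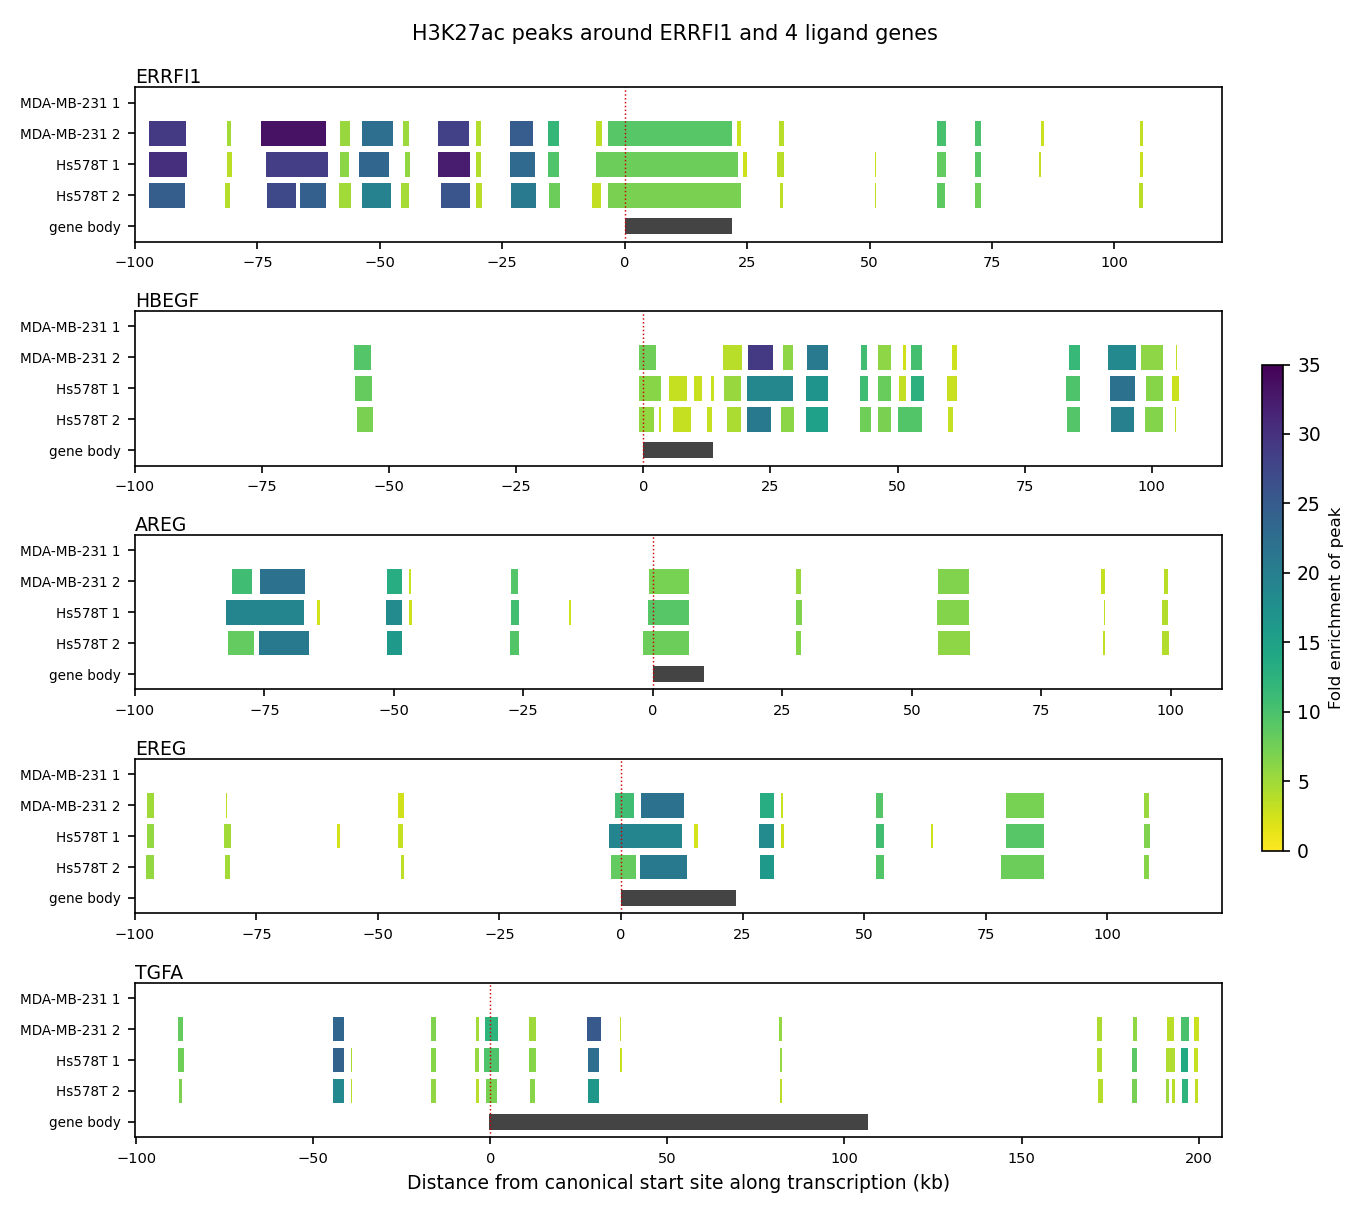
Peaks of the 4 lists around ERRFI1, HBEGF, AREG, EREG and TGFA, plotted by distance in kb from the canonical start site (dotted line) along the direction of transcription, with colour for the fold enrichment of each peak and a dark bar for the gene body. The 5 regions picked for a fold enrichment above 15, 20.8 to 93.3 kb upstream of ERRFI1, and the cluster past the end of HBEGF appear in the 3 large lists. The row of MDA-MB-231 replicate 1 is empty.

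NRG1 (ENSG00000157168.22, chromosome 8, 31639222 to 32855666, plus strand) encodes neuregulin 1, a ligand of ERBB3 and ERBB4, and has many start sites spread over its 1216445 bp. At the canonical start the peak was 2749, 2674 and 2814 bp wide with a fold enrichment of 11.1, 7.76 and 5.42, at percentiles 62.8, 47.2 and 33.3. The first start of the long forms, 909 kb upstream, and a start 98.7 kb downstream were unmarked, while another 174 kb downstream carried values of 4.98, 5.41 and 4.82. Covered bases, 71191, 66221 and 60257 bp, stood at percentiles 99.6, 99.1 and 99.03 of all genes, but over a window of 1416 kb this made 5.03%, 4.68% and 4.25%. A cluster of 10 regions centred 206 to 324 kb before the canonical start, inside introns of the long transcripts, was called in all 3 lists and held 46548, 43772 and 42098 bp of these bases. Its strongest peak stood at 18.4, 16.0 and 14.2.

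Among receptors, EGFR (ENSG00000146648.21, chromosome 7, 55019017 to 55211628, plus strand) had the widest promoter peak, at 4526, 4202 and 4144 bp. Its fold enrichment was 11.0, 7.63 and 5.10, and its percentile among promoter-marked genes was 62.4, 45.8 and 29.5. The difference between both Hs578T lists was about as large as that between MDA-MB-231 replicate 2 and Hs578T replicate 1. The window was covered to 17.1%, 16.4% and 12.3%, or 67034, 64460 and 48103 bp, which set Hs578T replicate 2 apart from both other lists rather than one line from the other. Intron 1 of the canonical transcript, 122.92 kb long, held 42314, 42304 and 32120 bp, or 63.1%, 65.6% and 66.8% of the covered bases. The strongest peak of the locus lay there, about 112 kb after the start, 9464, 10313 and 10127 bp wide with values of 26.4, 21.7 and 16.4. No other protein-coding start fell in this window. A peak 236 kb after the start, at 7.78, 4.35 and 2.70, lay at the start of the long non-coding RNA ELDR, which is named after its values were seen.

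A second EGFR start, 90.7 kb along in intron 1 and used by 1 basic transcript, was reached by a weak peak at 3.09, 3.16 and 3.42. The RefSeq promoter nearest to it held 2 AP-1 matches 232 and 136 bases and 2 TATAAA matches 146 and 36 bases before its start, in contrast to the canonical EGFR promoter. Of 24 EGFR regions, 16 were called in all 3 lists and 5 in MDA-MB-231 replicate 2 alone. The fold enrichment of these 5 lay between 2.77 and 3.33, near the lower end of the lists.

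ERBB2 (ENSG00000141736.14, chromosome 17, 39687914 to 39730426, plus strand), which encodes HER2, had the narrowest and weakest promoter peak of the marked members. It was 819, 747 and 876 bp wide, and its fold enrichment of 3.92, 3.52 and 2.68 stood at percentiles 6.67, 7.47 and 0.684. An upstream ERBB2 start 12.15 kb away, which lies close to the start of PGAP3 on the other strand, carried values of 21.5, 15.5 and 12.8. The peak there spans both starts, so its share for ERBB2 and for PGAP3, a gene of GPI-anchor lipid remodelling, cannot be told apart. The window was covered to 4.77%, 4.98% and 5.002%, at percentiles 57.1, 55.1 and 58.7 of all genes, whose medians were 3.96%, 4.37% and 4.002%. MIEN1 and STARD3 were marked in all 3 lists too, at 9.86, 6.99 and 6.55 and at 9.59, 6.75 and 6.16. GRB7, whose gene neighbours ERBB2 and which is named here after its values were seen, was marked at 2.97 and 3.19 in MDA-MB-231 replicate 2 and Hs578T replicate 1 and not in Hs578T replicate 2.

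ERBB3 (ENSG00000065361.17, chromosome 12, 56076799 to 56103505, plus strand) had a promoter peak 1473, 1111 and 985 bp wide with a fold enrichment of 7.89, 7.92 and 7.20, at percentiles 40.3, 48.5 and 53.3. In the Hs578T lists this peak ended 137 and 109 bp before the canonical start, and in MDA-MB-231 replicate 2 it reached 67 bp past it. Its window was covered to 15.6%, 16.8% and 16.4%, but 8 of its peaks in each large list sat at start sites of other genes. The most strongly marked were RPL41, a ribosomal protein gene, and ZC3H10, which share a peak of 15.8, 17.1 and 14.4, followed by MYL6 at 15.6, 12.9 and 12.3, MYL6B at 15.5, 12.1 and 10.4, both of which encode myosin light chains, and SMARCC2, a chromatin-remodelling subunit, at 11.0, 13.7 and 10.8. Without peaks at the starts of other genes the mean over the 3 large lists dropped from 16.3% to 3.74%, the largest change of any member. Over the gene body alone it was 4.80%.

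ERBB4 (ENSG00000178568.16, chromosome 2, 211375717 to 212538841, minus strand) had 5, 4 and 5 peaks in a window of 1363 kb, none at the promoter. They covered 7093, 6593 and 6605 bp, or 0.520%, 0.484% and 0.485%, at percentiles 12.8, 11.7 and 12.5 of all genes. Of 6 regions, 4 were called in all 3 large lists, and the strongest, in intron 2, stood at 9.38, 8.89 and 7.84.

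**Figure D3:**
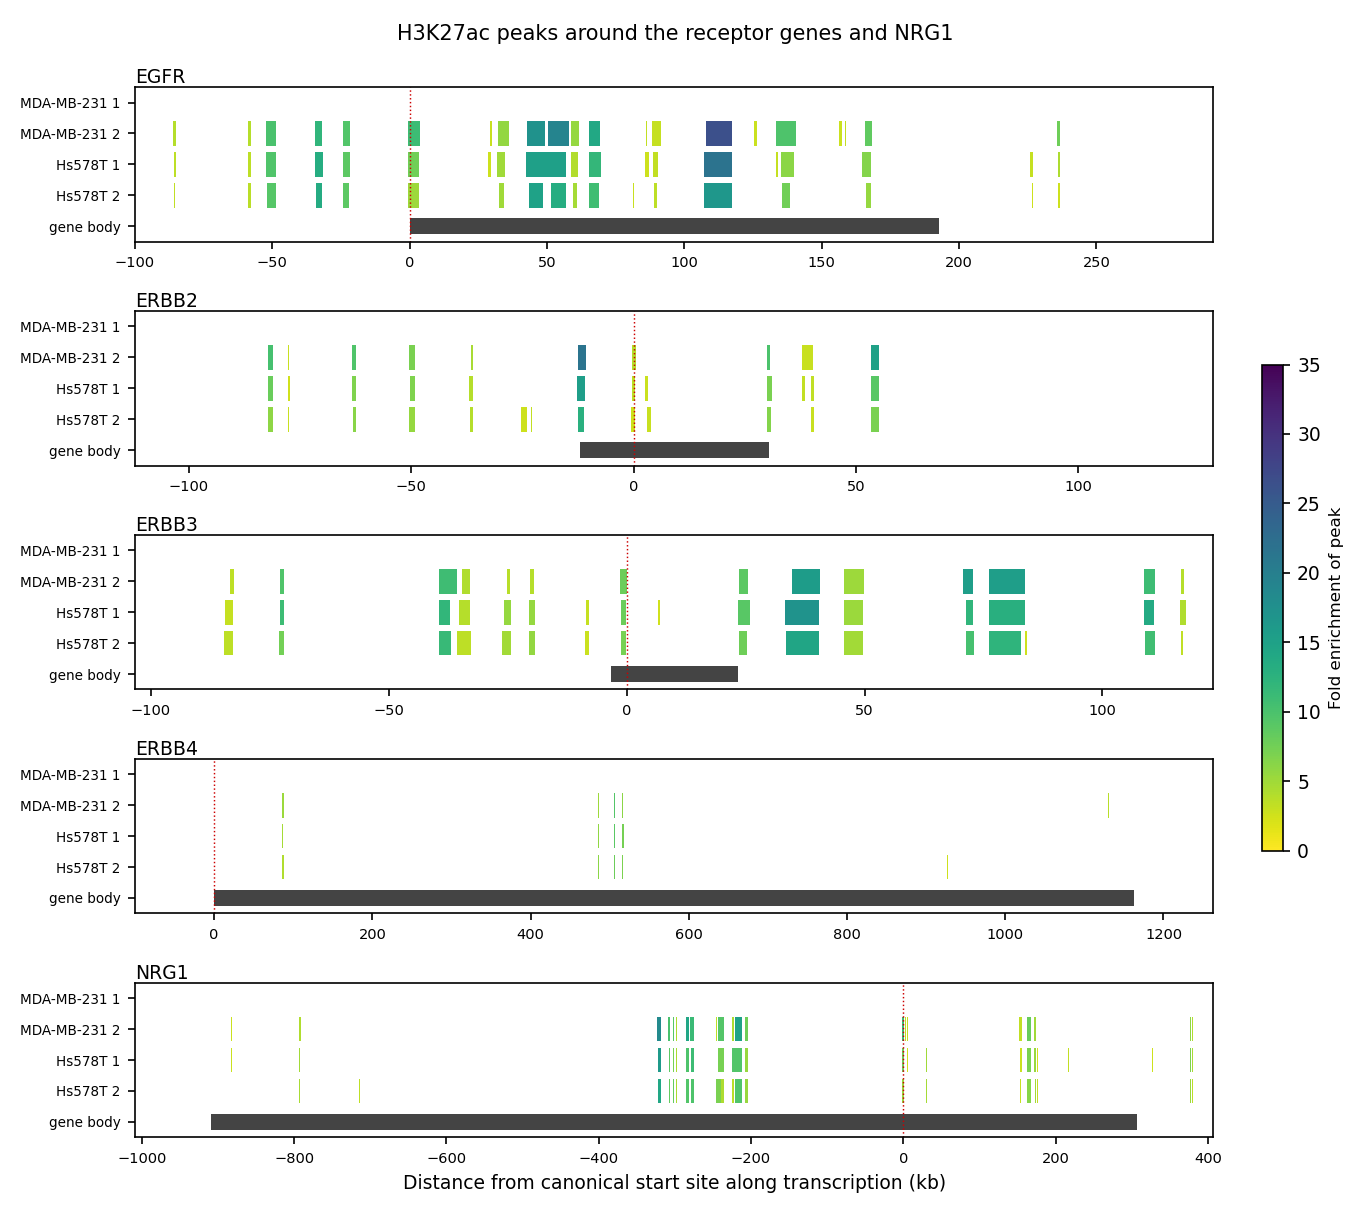
Peaks of the 4 lists around the receptor genes and NRG1 by distance in kb from the canonical start site (dotted line) along transcription, coloured by fold enrichment, with the gene body as a dark bar and a separate distance scale for each gene. EGFR shows its densest peaks in intron 1, ERBB4 has 5 thin peaks or fewer per list, and the NRG1 cluster lies 206 to 324 kb before the start.

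The roles were then set side by side within each list. Median covered percentage was 10.2%, 10.7% and 8.63% for the 4 receptors and 13.0%, 15.6% and 14.6% for the 5 ligands, against 35.2%, 36.9% and 34.98% for ERRFI1. Receptors ranged from 0.520% to 17.1%, 0.484% to 16.8% and 0.485% to 16.4%, and ligands from 5.03% to 19.2%, 4.68% to 24.5% and 4.25% to 21.8%, so these roles overlapped in each large list while ERRFI1 lay above both. The Hs578T lists averaged 9.66% ± 1.47 for receptors, 15.1% ± 0.706 for ligands and 35.9% ± 1.35 for ERRFI1 (SD, n = 2). In MDA-MB-231 the corresponding means of 5.10% ± 7.22, 6.49% ± 9.18 and 17.6% ± 24.9 (SD, n = 2) describe neither list, and without replicate 1 they were 10.2%, 13.0% and 35.2%. Without peaks at the starts of other genes, the Hs578T receptor mean dropped to 3.81% and the ligand mean to 10.9%. No test between lines or roles was made. With 2 libraries per line an exact two-sided permutation test cannot go below p = 0.333, and genes are not replicates of a role. AREG and EREG, whose windows overlap, were counted as separate ligands.

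Ordered by mean over the 3 large lists, the covered share was 35.7% ± 1.04 for ERRFI1, 21.9% ± 2.66 for HBEGF, 17.3% ± 1.14 for AREG, 16.3% ± 0.596 for ERBB3, 15.2% ± 2.62 for EGFR and 14.4% ± 1.34 for EREG (SD, n = 3). TGFA followed at 7.88% ± 0.710, then ERBB2 at 4.92% ± 0.128, NRG1 at 4.65% ± 0.386 and ERBB4 at 0.496% ± 0.0209 (SD, n = 3). These 3 lists are of different lines. Across lists the values of AREG overlapped those of ERBB3, those of EGFR overlapped AREG, ERBB3 and EREG, and those of ERBB2 overlapped NRG1. Within each large list AREG (16.1%, 18.3% and 17.6%) lay above ERBB3 (15.6%, 16.8% and 16.4%), and ERBB3 above EREG (13.0%, 15.6% and 14.6%). EGFR (17.1%, 16.4% and 12.3%) changed its place among them from list to list. NRG1 lay above ERBB2 in MDA-MB-231 replicate 2 and below it in both Hs578T lists. ERRFI1, HBEGF, TGFA and ERBB4 overlapped no neighbour. Above the 90th percentile of all genes, which by construction holds 10% of them, were 6, 6 and 5 of the 10 members. They include AREG and EREG, whose windows overlap. ERBB3 is among them too, with a mean of 3.74% once peaks at the starts of other genes were left out.

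**Figure D4:**
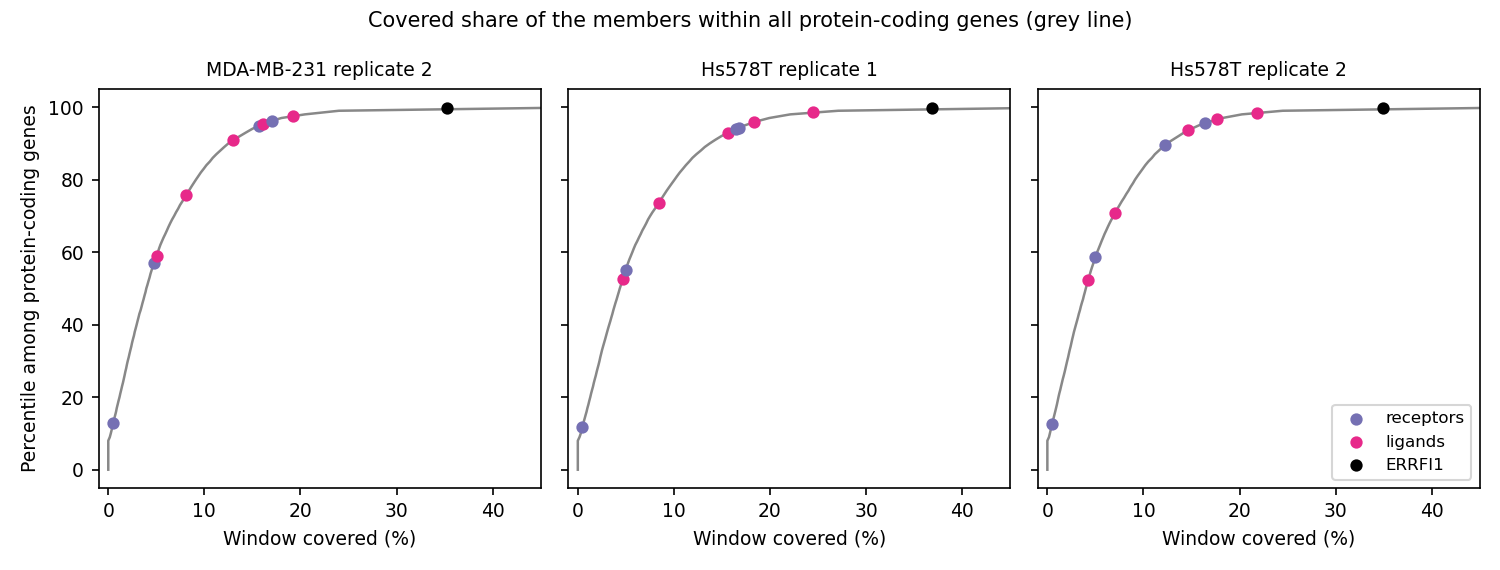
Percentile of each member's covered percentage among all protein-coding genes, 1 panel per large list, with the horizontal axis in percent of the window covered, the grey line showing all genes and colours for receptors, ligands and ERRFI1. ERRFI1 stands at percentile 99.8 or above in each panel, and receptors and ligands interleave below it.

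Promoter peaks gave another order. Median promoter width of the marked receptors was 1473, 1111 and 985 bp and of the ligands 3572, 4338 and 3163 bp. Receptors spanned 819 to 4526, 747 to 4202 and 876 to 4144 bp and ligands 2749 to 7650, 2674 to 15065 and 2814 to 8894 bp. EGFR alone among the receptors reached into the range of the ligands. Median fold enrichment was 7.89, 7.63 and 5.10 for receptors and 10.8, 9.22 and 7.14 for ligands, and the ranges overlapped in each list.

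**Figure D5:**
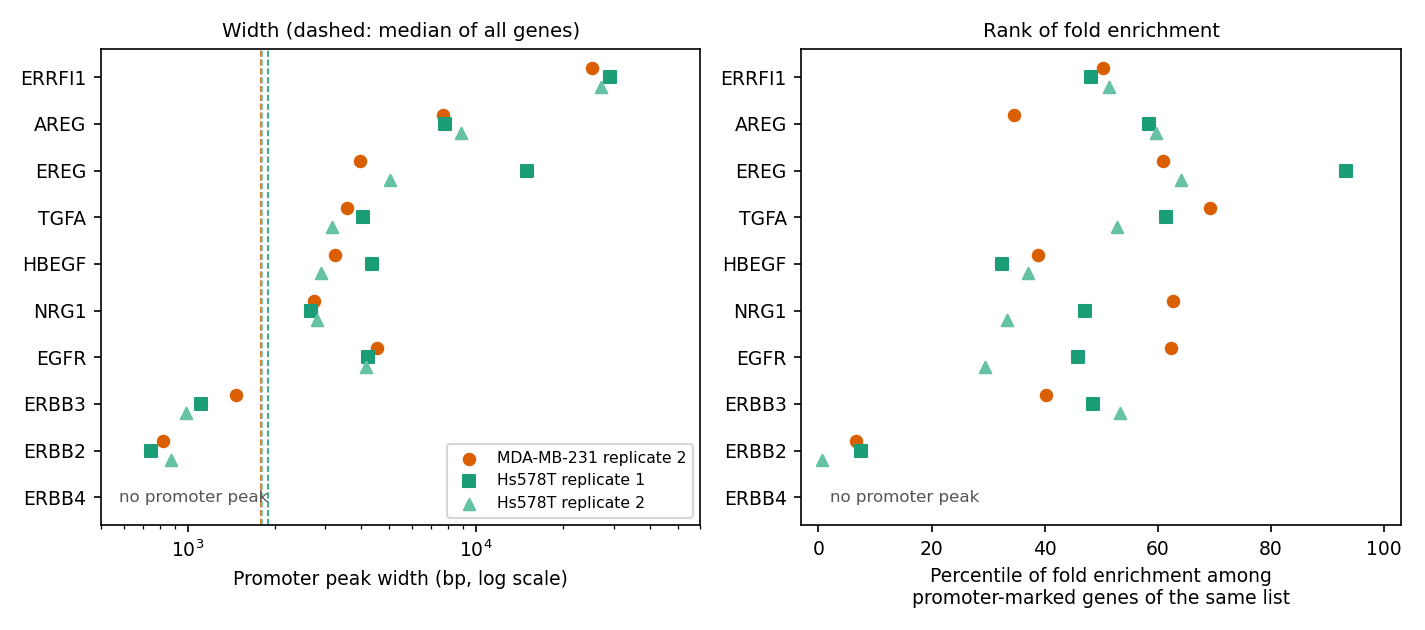
Width in bp on a log scale (left) and percentile of fold enrichment among promoter-marked genes of the same list (right) for the promoter peak of each member, with 1 marker per large list and dashed lines at the median width of all genes. ERRFI1 stands out in width at 25295 to 29096 bp but lies near the middle in fold enrichment, and ERBB2 is lowest in both panels.

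Strong peaks were next counted by member. Of the 139, 144 and 139 peaks, 12, 11 and 13 were in the strongest 5% of their list by fold enrichment, or 8.63%, 7.64% and 9.35%, and 5, 5 and 6 of them lay around ERRFI1. HBEGF and TGFA held 2 each in every large list and EGFR 1. AREG and EREG shared 1, 1 and 2, ERBB2 had 1 in MDA-MB-231 replicate 2 and 0 in the Hs578T lists, and ERBB3, ERBB4 and NRG1 had none. Of these strong peaks, 11, 10 and 13 were distal. Distal peaks also made up 112, 116 and 114 of all member peaks. In the whole lists they were 32560 of 43353, 35452 of 46330 and 34304 of 44920. The distal share of the strongest 5% of all peaks was not counted.

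The share of member peaks found in another list lay within counting error of that of all peaks. Of those of MDA-MB-231 replicate 2, 93.5% (95% Wilson interval 88.2 to 96.6%) overlapped a peak of Hs578T replicate 1 and 89.2% (83.0 to 93.4%) one of Hs578T replicate 2, against 94.2% and 91.2% of all its peaks. Hs578T replicate 2 shared 95.7% (90.9 to 98.0%) with its own replicate and 89.9% (83.8 to 93.9%) with MDA-MB-231 replicate 2, against 93.4% and 87.9%. Hs578T replicate 1 shared 86.8% (80.3 to 91.4%) with its own replicate and 87.5% (81.1 to 91.9%) with MDA-MB-231 replicate 2, against 88.8% and 86.4%. Its member peaks thus overlapped its own replicate no more often than the list of the other line. The intervals cover counting error only. When overlapping peaks were merged, 114 regions were called in all 3 large lists and 39 in 1 or 2. The highest fold enrichment of a region had a median of 8.13 in the former and 3.01 in the latter, none of which exceeded 5.23. In the latter it was taken over fewer lists. Merged regions outside the member windows were not counted, so these numbers are not read as a trait of the members.

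The motif of AP-1, a factor family that the study examined, was counted in distal peaks. Of the 112, 116 and 114 distal member peaks, 57, 56 and 57 held it. These shares were 50.9% (95% Wilson interval 41.8 to 59.97%), 48.3% (39.4 to 57.3%) and 50% (41.0 to 59.0%), within counting error of the 51.8%, 51.0% and 50.3% of all distal peaks. Member peaks were somewhat wider, with medians of 1437.5, 1418.5 and 1449 bp against 1249, 1263.5 and 1226 bp. Over the central 500 bp of each peak the member shares were lower than those of all distal peaks, as given at the end. By gene the counts were small, and the genes given are named after their values were seen. Around EGFR 14 of 22, 12 of 18 and 12 of 18 distal peaks held the motif. ERBB4 had 3 of 5, 3 of 4 and 3 of 5, and EREG 5 of 8, 5 of 9 and 6 of 7. ERBB3 had 1 of 5, 1 of 7 and 1 of 7, and ERBB2 2 of 4, 2 of 5 and 1 of 7. All peaks of the EGFR window had median widths of 2590, 2561 and 2003 bp, and the part of width was not tested.

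Promoter peaks were also counted for the remaining genes of the pathway. Of 48 listed genes, 43 had one in all 3 large lists and 4 in none, beside 55.6% and 40.7% of all protein-coding genes, and the small list marked 0. Other ligands were marked in all 3 lists in 2 of 6 cases. EGF, the founding ligand, had values of 4.63, 6.94 and 5.59, and BTC, betacellulin, 4.89, 7.12 and 4.37. NRG2 had a peak in Hs578T replicate 1 alone (4.07), and EPGN, NRG3 and NRG4 had none. All 4 shedding genes were marked, from the protease ADAM10 at 12.5, 9.95 and 8.36 down to the pseudoprotease RHBDF1 at 7.21, 6.88 and 4.78. So were all 7 adaptors, led by SHC1 at 46.0, 38.8 and 34.3, with GRB2 lowest at 6.40, 4.72 and 4.18. Of the RAS-MAPK kinases and GTPases 9 of 9 were marked.

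Feedback regulators were marked in 13 of 14 cases. DUSP6, a phosphatase that switches off ERK, was highest at 25.8, 22.3 and 16.8, and LRIG1, a membrane protein that promotes degradation of EGFR family receptors, was unmarked in every list. All 8 ERK-responsive genes were marked, from FOSL1, an AP-1 subunit, at 38.1, 31.7 and 23.4 to the ETS factor ETV5 at 9.41, 7.71 and 5.65. Median covered percentage was 10.8%, 12.7% and 10.9% in the ERK-responsive list and 8.23%, 9.30% and 8.95% in the feedback list, both below ERRFI1. Some single genes came closer to it than these medians. Of the feedback genes, named here after their values were seen, DUSP5 was covered to 26.9%, 31.4% and 28.2% and SPRY4 to 25.8%, 28.8% and 27.8%. Both lay above every member but ERRFI1. DUSP4 had promoter peaks of 25039, 25097 and 24852 bp, against 25295, 29096 and 27022 bp for ERRFI1. IER3, an ERK-responsive gene named after its values were seen, was covered to 36.9%, 39.9% and 39.9%, above ERRFI1 in each large list, and the promoter peaks of FOSL1 were 32955, 33692 and 32702 bp wide, wider than those of ERRFI1.

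Genes most like the leading members in covered percentage over the 4 lists were found by the smallest sum of absolute differences. For ERRFI1 they were BCL2L1, an anti-apoptotic gene, at 35.2%, 37.5% and 36.1% (sum 1.88 percentage points), KRT7, a keratin, at 35.8%, 37.99% and 36.1% (2.77), and ACTN4, an actin crosslinker, at 33.7%, 35.7% and 34.3% (3.38). For HBEGF they were IRS1, DOLK and PTRH2, with sums of 0.758, 1.22 and 1.86. For AREG they were TTC19, RPS18 and EVA1B, with sums of 0.107, 0.155 and 0.445. Each of these 9 genes was at 0 in MDA-MB-231 replicate 1, as were 97.5% of all genes.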

How the data were processed

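H3K27ac ChIP-seq peak lists of 4 libraries, 2 each of MDA-MB-231 and Hs578T, were used, with groups and replicate numbers from the sample titles. Whether replicates came from separate cultures is not given in the labels beyond their numbers, so spreads may be technical in part. The authors trimmed reads with Trimmomatic, mapped them to hg38 with Bowtie2, called peaks per library with MACS2 against input and removed blacklisted regions (versions not given in the sources used here). Their 9 columns match the broad output of MACS2, and that mode was assumed. For each peak the deposited lists give a score, a fold enrichment (a ratio to the local background, column 7) and −log10 p- and q-values made by the authors. The study's text gives a longer wash-off than the labels.

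Members and gene lists were chosen with earlier results of these data known. Peaks on chromosomes 1 to 22 and X were placed on GENCODE release 44 with Python 3.11.15, pandas 2.3.3, NumPy 2.4.6 and pyfaidx 0.9.0.4, and figures were drawn with matplotlib 3.10.9. A peak was a promoter peak where it overlapped 1 kb on either side of the canonical start, and the one with the highest fold enrichment was used. Percentiles refer to all protein-coding genes, or all peaks, of the same list. Sequences came from hg38 and, for promoters, RefSeq. The scripts were tested on simulated data. Besides the members, the text names the other ligands, the strongest and weakest gene by promoter fold enrichment of each pathway list, up to 5 marked genes in a member window, and the 3 genes most alike in covered percentage to each of the 3 leading members. Single genes of the RAS-MAPK list are not reported here. Alternatives were other start-site windows, start sites, flanks, strength filters, merging, overlap rules, and leaving out each replicate. No read counts or depths were available, so values have the precision of single lists.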

Additional observations from a re-analysis of the deposited data

How the results depend on the processing

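The number of members with a promoter peak in the 3 large lists was 9 with a 2.5 kb window, with starts of all basic transcripts and without any 1 replicate, and 8 in the strongest 50% of each list. Leaving out each MDA-MB-231 replicate moved the mean covered percentage from 0 to 10.2% for receptors, from 0 to 13.0% for ligands and from 0 to 35.2% for ERRFI1, where 0 is the value without replicate 2. For Hs578T the ranges were 8.63 to 10.7%, 14.6 to 15.6% and 34.98 to 36.9%. Without peaks at the starts of other genes, receptors and ligands in Hs578T were covered to 3.81% and 10.9%, which follows from the peaks removed. Searching the central 500 bp of distal member peaks lowered the share with AP-1 to 27.7%, 27.6% and 22.8% in MDA-MB-231 replicate 2, Hs578T replicate 1 and Hs578T replicate 2 (32.9%, 31.7% and 31.5% of all distal peaks). Members thus lay below all distal peaks in each large list, by most in Hs578T replicate 2. The strongest 50% of each list raised the share to 69.1%, 65.5% and 74.6% (66.9%, 66.5% and 66.002%), with members below only in Hs578T replicate 1. No interval was computed for these shares. With an overlap of 50% of both peaks, MDA-MB-231 replicate 2 shared 78.4% of its member peaks with Hs578T replicate 1 and 74.1% with replicate 2. Hs578T replicate 1 then shared 75.7% with MDA-MB-231 replicate 2 and 75% with its replicate, and Hs578T replicate 2 shared 74.1% and 77.7%. ERRFI1 had the highest mean covered percentage and ERBB4 the lowest under each flank, strength filter and left-out large list tried, and ERRFI1 was covered to 100% over the gene body alone, to 41.3% with flanks of 50 kb and to 24.5% with flanks of 250 kb. HBEGF was second except with the gene body alone, where AREG (70.7%) and EREG (52.7%) preceded it (44.9%), and with flanks of 250 kb, where ERBB3 (14.4%) did (11.9%). No paired analysis was possible because the values come from no fitted test, and because MDA-MB-231 replicate 1, with 0 peaks around the members, leaves 1 same-numbered pair with values in both lines. Depth is unknown, so a gene without a peak cannot be called free of H3K27ac, least of all in MDA-MB-231 replicate 1.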
